A study of Mus musculus with 12 samples.

Results

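The mitochondrially encoded transcripts are the RNAs read from the small circular genome that mitochondria keep for themselves. The 10 genes considered were mt-Nd1, mt-Nd2, mt-Nd4, mt-Nd5, mt-Nd6, mt-Co1, mt-Cytb, mt-Atp6, mt-Rnr1 and mt-Rnr2, taken by symbol. Of these, 9 were analysed, out of 25919 genes in the count table, and mt-Atp6 is not analysed here. All 9 passed the filter on low counts.

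RNA from liver was measured by bulk sequencing of the 3′ ends of poly(A) RNA, in libraries from C57BL/6 mice aged 7 weeks. The CD40 group at day 2 had 4 libraries and the Kupffer cell group at day 0 had 2, out of 12 libraries in the table. CD40 is a receptor of antigen-presenting cells, and Kupffer cells are macrophages resident in the liver. The labels give neither a treatment, a genotype beyond the strain, a sorting scheme nor the event from which days were counted, and they do not say whether each library came from its own animal, so the p-values reflect only how far these libraries scatter, which may be technical. The series title names whole liver where the samples carry cell type labels, and the design text gives 3 to 4 replicates where the Kupffer day 0 group has 2. The columns of the other groups, Kupffer cells at day 7 and Ly6C CD40-negative cells at day 2, were not read by gene, because column a of each falls along the table with 1 step up although the rows follow Kupffer day 0 a. The letters a to d mark the libraries of a group and carry no order. The groups compared differ in both cell label and day, so these cannot be told apart. Rose, fell and changed describe CD40 day 2 against Kupffer day 0 and not a course over time in one kind of cell.

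Mitochondrial DNA is copied from both strands into long precursors that are cut, largely at the transfer RNAs between the genes, into messenger and ribosomal RNAs. The messengers encode core subunits of the respiratory chain and of ATP synthase, which assemble with a much larger number of subunits encoded in the nucleus, and the ribosomal RNAs mt-Rnr1 and mt-Rnr2 form the small and large subunit of the mitochondrial ribosome. Every protein that copies, transcribes, cuts, tails or translates this genome is made from nuclear genes. Macrophages are known to change their use of the respiratory chain when they are activated.

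Because the assay reads 3′ ends, the end of each transcript matters for what is counted. Where the counted reads lay was not examined, so the last 30 bases of each annotated transcript are shown. They are given here 5′ to 3′ in the sense of each RNA, as DNA letters, with the bases of the stop codon that lie in the transcript in capitals, from the GENCODE release M21 transcripts on GRCm38.
mt-Rnr1, chrM:995-1024, plus strand: aagcatactggaaagtgtgcttggaataat
mt-Rnr2, chrM:2646-2675, plus strand: atacgtacaccctctaacctagagaaggtt
mt-Nd1, chrM:3678-3707, plus strand: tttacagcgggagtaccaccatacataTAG
mt-Nd2, chrM:4922-4951, plus strand: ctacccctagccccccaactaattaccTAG
mt-Co1, chrM:6843-6872, plus strand: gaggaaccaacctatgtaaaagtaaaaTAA
mt-Nd4, chrM:11515-11544, plus strand: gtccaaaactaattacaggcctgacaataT
mt-Nd5, chrM:13536-13565, plus strand: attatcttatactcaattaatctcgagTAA
mt-Nd6, chrM:13552-13581, minus strand: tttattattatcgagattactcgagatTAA
mt-Cytb, chrM:15259-15288, plus strand: tcgaagacaaaatactaaaattatatccaT

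The ends differ in kind. The annotated mt-Nd4 and mt-Cytb transcripts stop at a single T, the first base of a stop codon that the added A tail completes, whereas mt-Nd1, mt-Nd2, mt-Co1, mt-Nd5 and mt-Nd6 carry a full stop codon. Of the 9 transcripts only mt-Nd6 is encoded on the minus strand, and its annotated end overlaps that of mt-Nd5 by 14 bases, from position 13552 to 13565. In human cells the mt-Nd6 messenger is known to lack a stable A tail. Since the strand setting of the counting is not given in the sources used here, reads that lie within that overlap cannot be told apart between mt-Nd5 and mt-Nd6. If strands were not separated, any plus-strand RNA running past the annotated end of mt-Nd5 would also be counted on mt-Nd6. This was not tested, so the whole mt-Nd6 count is uncertain in this respect.

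Some of these sequences also lie in annotated nuclear copies of mitochondrial DNA. Of the 75-base stretches of mt-Co1, 39.8% occur unchanged in the nuclear pseudogenes Gm13340 and Gm29216, and within its last 300 bases the share is 100%. For mt-Nd2 the share is 5.71% over the whole transcript and 24.3% within the last 300 bases, all in Gm13339. mt-Nd4 shares 61.5% of its stretches with Gm28439 but 0% within the last 300 bases, and mt-Nd5 shares 1.66%, likewise with 0% near its end. mt-Nd1, mt-Nd6, mt-Cytb, mt-Rnr1 and mt-Rnr2 share 0%. The copies are not analysed here and the handling of reads with several matches is not given in the sources used here, so the counts of mt-Co1 and mt-Nd2 are uncertain in this respect.

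The libraries held 725683 to 2271228 counts in the CD40 day 2 group and 688498 and 1612435 counts in the Kupffer day 0 group. Levels are given as CPM, the counts of a gene scaled to a common total over the tested genes after TMM scaling. As a check of the labels, Cd40 averaged 330 ± 72.6 CPM in the CD40 day 2 libraries and 19.1 ± 1.41 CPM in the Kupffer day 0 libraries (SD, n = 4 and 2), and Clec4f, a Kupffer cell lectin, averaged 17.2 ± 3.61 and 1073 ± 74.3 CPM in the same order. Over all genes, 2288 were higher and 2974 lower in CD40 day 2 among 9852 tested (edgeR quasi-likelihood test, Benjamini-Hochberg adjusted p under 0.05), and the median log2 fold change was -0.1.

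Mitochondrially encoded RNA held a smaller part of all counts in the CD40 day 2 libraries. The 9 transcripts together held 1.16%, 1.26%, 1.46% and 1.73% of the counts in CD40 day 2 a to d, against 3.12% and 2.62% in Kupffer day 0 a and b. The groups did not overlap, and the means were 1.4 ± 0.254% and 2.87 ± 0.349% (SD, n = 4 and 2), a difference of -1.47 percentage points (exact permutation test, two-sided, p = 0.067, the smallest that the 15 splits of 4 against 2 libraries allow). The exact 95% binomial interval of a library's share reached at most 0.038 percentage points to either side, which covers counting error only.

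The gap was wider for the messengers than for the ribosomal RNAs. The 7 messengers held 0.387%, 0.32%, 0.417% and 0.429% of all counts in the CD40 day 2 libraries, against 1.2% and 1.11% in the Kupffer day 0 libraries, with means 2.97-fold apart. The ribosomal RNAs held 0.771%, 0.936%, 1.04% and 1.3% in CD40 day 2, against 1.92% and 1.51% in Kupffer day 0, with means 1.69-fold apart. Both were lower in CD40 day 2 without overlap (exact permutation p = 0.067 for each).

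Tested gene by gene, 7 of the 9 transcripts were lower in CD40 day 2 and 2, mt-Co1 and mt-Rnr1, did not pass the threshold. Of all genes tested, 30.2% were called lower in the same fit. None of the 9 was called higher, where 23.2% of all genes were. At an unadjusted p under 0.05, 8 of the 9 were lower and 0 higher, and DESeq2 called 6 lower and 0 higher. The shares of all genes above belong to the adjusted edgeR fit. Those at the unadjusted threshold and under DESeq2 are not given here, so these counts have no background to be read against. For 8 of the 9, all but mt-Rnr1, every CD40 day 2 library lay below both Kupffer day 0 libraries, an arrangement that 36.9% of all genes showed, while 29.7% showed the opposite one. The median log2 fold change of the 9 was -1.44. In bulk RNA, fewer cells of a kind and less RNA per cell cannot be told apart.

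**Figure D1:**
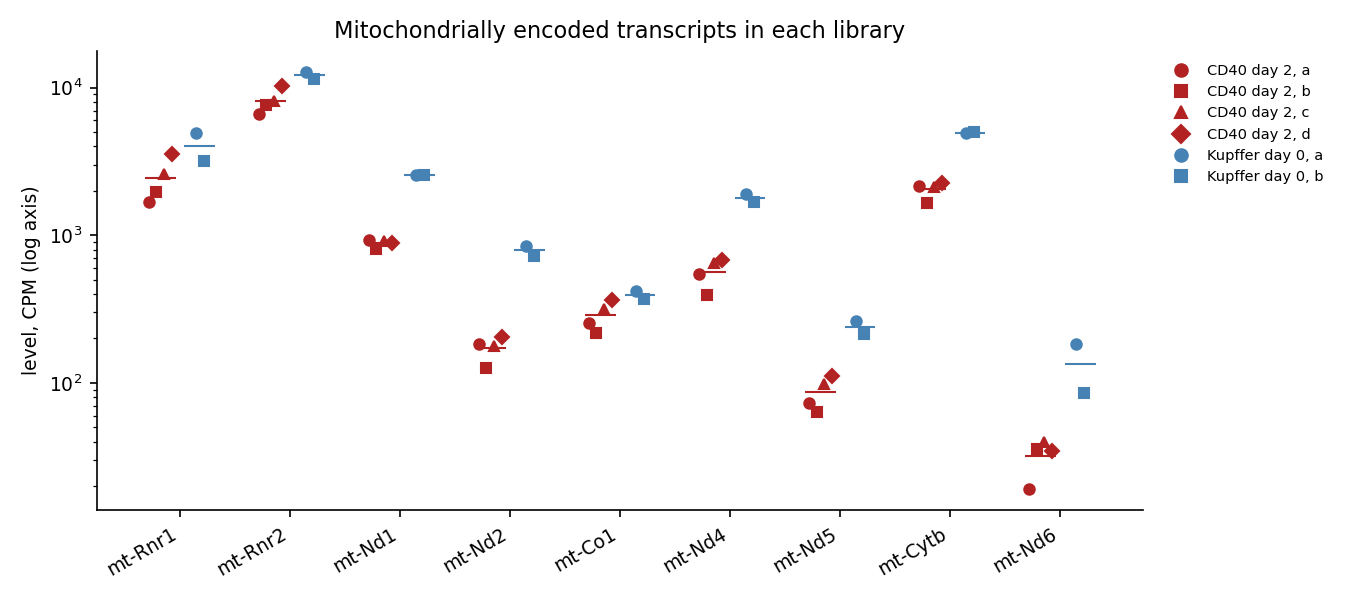
Level of each of the 9 transcripts in CPM (log axis), ordered by position on the plus strand with mt-Nd6 of the minus strand last. Each point is 1 library (4 of CD40 day 2 in red, 2 of Kupffer day 0 in blue), horizontal lines are group means, and only for mt-Rnr1 do the libraries of the groups overlap.

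Complex I, the NADH dehydrogenase through which electrons enter the chain, had 5 of its mitochondrially encoded subunits among the transcripts, and all 5 fell. mt-Nd1, part of the membrane arm next to the quinone site, had 930, 801, 908 and 892 CPM in the CD40 day 2 libraries, against 2573 and 2547 CPM in the Kupffer day 0 libraries. The libraries of each group lay close together, and the means of 883 ± 56.9 and 2560 ± 18 CPM (SD, n = 4 and 2) were 2.9-fold apart, a log2 fold change of -1.54 ± 0.14 (SE, edgeR adjusted p = 1.75e-05). mt-Nd2, mt-Nd4 and mt-Nd5 encode the antiporter-like subunits that are thought to move protons through the membrane arm. mt-Nd2 had 183, 127, 177 and 204 CPM in CD40 day 2, against 849 and 728 CPM in Kupffer day 0. It showed the lowest log2 fold change of the 9 in this fit, -2.18 ± 0.19 (SE, edgeR adjusted p = 1.16e-05), or 4.54-fold lower.

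mt-Nd4 had 546, 392, 651 and 677 CPM in CD40 day 2, against 1909 and 1692 CPM in Kupffer day 0. Its highest CD40 value lay well below both Kupffer values, and it was 3.17-fold lower in CD40 day 2 (log2 fold change -1.66 ± 0.21, SE, edgeR adjusted p = 0.000128). mt-Nd5 had 72.8, 63.7, 98.3 and 111 CPM in CD40 day 2, against 261 and 214 CPM in Kupffer day 0, which made it 2.71-fold lower (log2 fold change -1.44 ± 0.23, SE, edgeR adjusted p = 0.000489). mt-Nd6, the subunit read from the other strand, was the scarcest in CPM, with 19.1, 35.4, 39.6 and 34.5 CPM in CD40 day 2, against 184 and 85 CPM in Kupffer day 0. These values rest on 21 to 87 counts in CD40 day 2 and on 320 and 61 counts in Kupffer day 0. The Kupffer libraries differed from each other 2.16-fold but stayed above every CD40 library (log2 fold change -2.08 ± 0.32, SE, edgeR adjusted p = 0.000473).

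mt-Cytb encodes cytochrome b, the mitochondrially encoded subunit of complex III, which passes electrons from quinol to cytochrome c. It had 2158, 1652, 2126 and 2260 CPM in the CD40 day 2 libraries, against 4918 and 5003 CPM in the Kupffer day 0 libraries. It was the messenger with the highest counts in every library of both groups, and it fell 2.42-fold (log2 fold change -1.27 ± 0.17, SE, edgeR adjusted p = 0.000155).

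mt-Co1 encodes the catalytic subunit of complex IV, the cytochrome c oxidase that reduces oxygen. Its level was 256, 218, 315 and 363 CPM in CD40 day 2, against 419 and 369 CPM in Kupffer day 0. The groups stood apart only narrowly, between 363 CPM in CD40 day 2 d and 369 CPM in Kupffer day 0 b, and the difference did not pass the threshold (log2 fold change -0.45 ± 0.21, SE, edgeR adjusted p = 0.0965). With library totals in place of TMM it was called lower, at -0.61, and so it was with at least 10 counts in 4 libraries, at -0.58, and without CD40 day 2 d, at -0.58.

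The ribosomal RNAs were measured as far as oligo-dT priming captures them, and mt-Rnr2 had the highest counts of the 9 transcripts in every library. mt-Rnr2 had 6611, 7655, 8132 and 10238 CPM in the CD40 day 2 libraries, against 12840 and 11357 CPM in the Kupffer day 0 libraries. The groups did not overlap and it was called lower, 1.48-fold (log2 fold change -0.57 ± 0.2, SE, edgeR adjusted p = 0.0342), a call lost under DESeq2 (-0.52, adjusted p = 0.0537) and in 5 of the 6 fits that left out a library. mt-Rnr1 had 1686, 1949, 2605 and 3557 CPM in CD40 day 2, against 4908 and 3160 CPM in Kupffer day 0. Here CD40 day 2 d lay above Kupffer day 0 b, and the difference did not pass (log2 fold change -0.72 ± 0.29, SE, edgeR adjusted p = 0.0621). It was called lower at -0.89 with library totals alone, at -0.85 with at least 10 counts in 4 libraries, at -0.72 with no filter and at -0.96 without CD40 day 2 d.

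The calls of the 6 other messengers held in all 12 alternatives tried, including each left-out library. Over these settings the log2 fold change ranged from -1.7 to -1.43 for mt-Nd1, from -2.35 to -2.0 for mt-Nd2 and from -1.83 to -1.46 for mt-Nd4. It ranged from -1.61 to -1.26 for mt-Nd5, from -2.49 to -1.39 for mt-Nd6 and from -1.44 to -1.12 for mt-Cytb. Among the 6, mt-Nd6 moved furthest, to -1.39 without Kupffer day 0 a and to -2.49 without Kupffer day 0 b.

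The order of the transcripts was set on a per-length scale, CPM per kilobase of annotated transcript. In the CD40 day 2 libraries mt-Rnr2 led with a mean of 5157 CPM per kilobase, followed by mt-Rnr1 at 2565, mt-Cytb at 1791, mt-Nd1 at 922, mt-Nd4 at 411, mt-Co1 at 186, mt-Nd2 at 166, mt-Nd6 at 62.0 and mt-Nd5 at 47.4. Neighbours in that order whose libraries overlapped were mt-Rnr1 and mt-Cytb, mt-Co1 and mt-Nd2, and mt-Nd6 and mt-Nd5. In the Kupffer day 0 libraries the means per kilobase were 7648 for mt-Rnr2, 4336 for mt-Cytb, 4224 for mt-Rnr1, 2675 for mt-Nd1, 1307 for mt-Nd4, 760 for mt-Nd2, 259 for mt-Nd6, 255 for mt-Co1 and 130 for mt-Nd5. There the ranges of mt-Cytb and mt-Rnr1, and of mt-Nd6 and mt-Co1, overlapped. With 3′ counting a transcript gives about as many counts whatever its length, so this scale shrinks long transcripts such as mt-Nd5.

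The composition of the mitochondrially encoded RNA also differed between the groups. Ribosomal RNA made up 66.6%, 74.5%, 71.3% and 75.2% of the counts of the 9 transcripts in CD40 day 2, against 61.5% and 57.7% in Kupffer day 0. Every CD40 library had the larger share, with means of 71.9 ± 3.94% and 59.6 ± 2.68% (SD, n = 4 and 2; exact permutation test, two-sided, p = 0.067, the smallest possible). Within the ribosomal RNAs the part held by mt-Rnr1 was 20.3%, 20.3%, 24.3% and 25.8% in CD40 day 2, against 27.7% and 21.8% in Kupffer day 0, and these ranges overlapped (exact permutation p = 0.47).

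**Figure D2:**
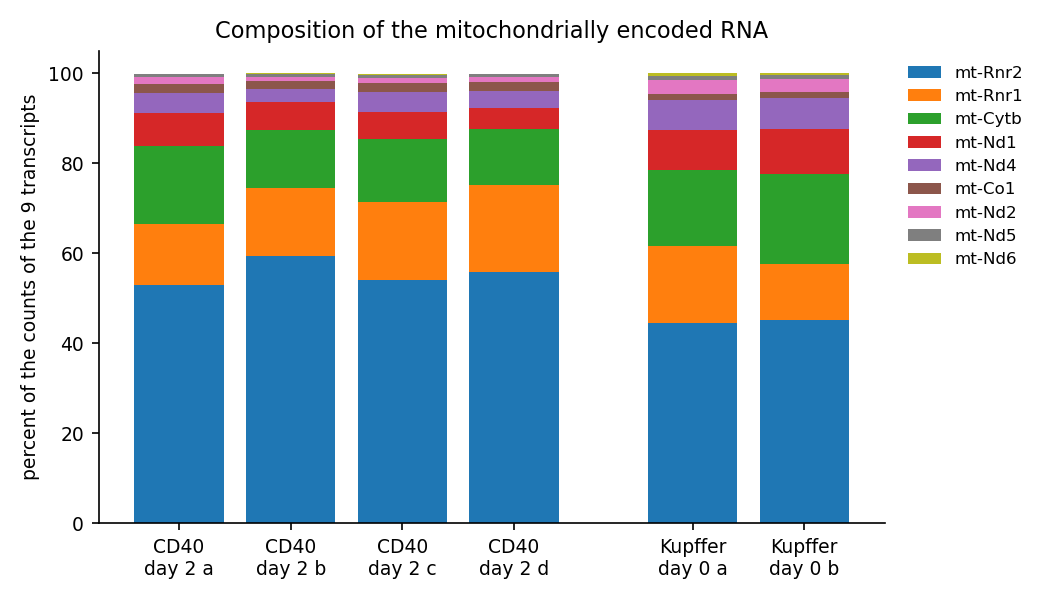
Percent of the counts of the 9 mitochondrially encoded transcripts held by each, in 1 bar per library, CD40 day 2 on the left and Kupffer day 0 on the right. mt-Rnr2 took 53.0% to 59.4% in the CD40 day 2 libraries and 44.5% and 45.1% in the Kupffer day 0 libraries.

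To compare the transcripts with each other, the same genes were fitted with each library scaled to the summed counts of the 7 messengers. The largest part of that sum was mt-Cytb, 49.3% to 51.8% in CD40 day 2 and 44.3% and 47.0% in Kupffer day 0, so the scale follows that messenger closely. On it, mt-Co1 was higher in CD40 day 2, with a log2 fold change of 0.96 ± 0.21 (SE, edgeR adjusted p = 0.00167). mt-Rnr2 was higher by 0.86 ± 0.25 (adjusted p = 0.00805) and mt-Rnr1 by 0.69 ± 0.29 (adjusted p = 0.0449), and mt-Nd2 was lower, at -0.78 ± 0.19 (adjusted p = 0.00324). mt-Nd1, mt-Nd4, mt-Nd5, mt-Nd6 and mt-Cytb did not pass, with values between -0.66 and 0.14.

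These relative values show unequal change among the transcripts and not a rise of any of them against all genes. On this scale 62.9% of all genes were called higher and 12.4% lower, and the median over all genes was 1.3, which lies above the values of mt-Co1, mt-Rnr2 and mt-Rnr1. As a part of the messenger counts, mt-Co1 took 6.14%, 6.62%, 7.29% and 7.99% in CD40 day 2, against 3.77% and 3.47% in Kupffer day 0, and mt-Nd2 took 4.39%, 3.87%, 4.1% and 4.49% in CD40 day 2, against 7.64% and 6.85% in Kupffer day 0. Neither pair of groups overlapped. These are the transcripts, of the 9, that share the ends of their sequence with nuclear copies, whose part in the result was not tested. The call of mt-Nd2 was lost without Kupffer day 0 a (-0.7, adjusted p = 0.0529), and the calls of mt-Rnr2 (0.8) and mt-Rnr1 (0.43) without Kupffer day 0 b. The call of mt-Rnr1 was also lost without CD40 day 2 c (0.68) and without CD40 day 2 d (0.53). With the sum of all 9 transcripts as the scale, mt-Co1, mt-Rnr1 and mt-Rnr2 did not pass, and mt-Nd4 (-0.79) and mt-Nd6 (-1.18) were lower beside mt-Nd2. mt-Nd6 was also called lower without CD40 day 2 b (-0.78) and without Kupffer day 0 b (-1.06).

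**Figure D3:**
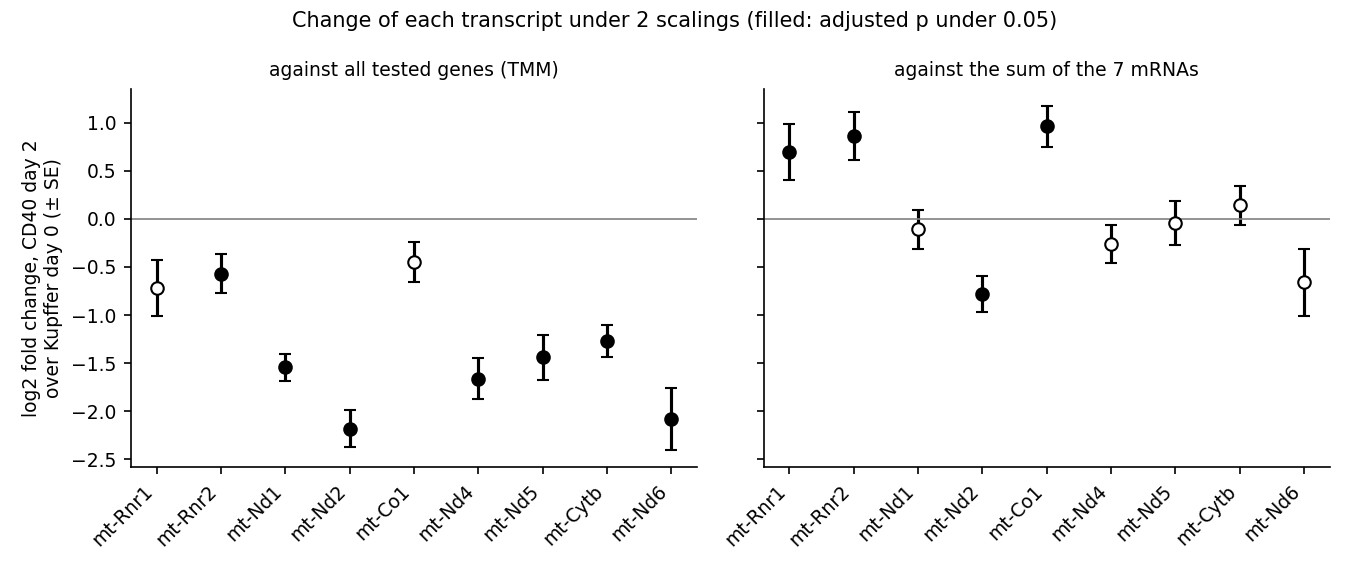
Log2 fold change of each transcript, CD40 day 2 over Kupffer day 0, with its standard error, scaled to all tested genes by TMM (left) and to the summed counts of the 7 messengers (right). Filled points have an adjusted p under 0.05. On the left all 9 values lie below 0, and on the right mt-Co1, mt-Rnr2 and mt-Rnr1 lie above 0 and mt-Nd2 below.

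Among the CD40 day 2 libraries the messengers were mostly low and high in the same libraries. Library b had the lowest level of 6 of the 7 messengers, the exception being mt-Nd6, and library d had the highest level of 5 of the 7 messengers and of both ribosomal RNAs. The mean centred log2 level of the messengers was -0.62, -0.78, -0.35 and -0.28 in CD40 day 2 a to d, against 1.15 and 0.87 in Kupffer day 0 a and b. Kupffer cell markers held 0.196%, 0.0867%, 0.222% and 0.32% of the counts in CD40 day 2 a to d, which is the same order of libraries, against 0.765% and 0.69% in Kupffer day 0 a and b. That order was not particular to Kupffer cell markers. Immediate early and dissociation genes held 0.731%, 0.522%, 0.795% and 0.942% in CD40 day 2 a to d. Neutrophil markers held 0.127%, 0.0889%, 0.155% and 0.173%, and erythroid markers 0.00803%, 0.00675%, 0.0273% and 0.0746%. The remaining marker lists had other orders. The part of any of these lists in the level of the transcripts was not tested.

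Other marker lists moved with the groups as well, where 23.2% of all genes tested were called higher and 30.2% lower. Of the 15 Kupffer cell markers, 11 were lower in CD40 day 2 and none was at 0 in a whole group. Markers of sinusoidal endothelium, all 15 lower, held 0.0747% to 0.129% of the counts in CD40 day 2 and 2.27% to 2.42% in Kupffer day 0, where they exceeded the Kupffer cell markers themselves. Hepatocyte markers, whose cells are rich in mitochondria, held 0.0229% to 0.0446% in CD40 day 2 and 0.0715% to 0.199% in Kupffer day 0, with 14 of 18 tested lower and 1 higher. Stellate cell markers held 0.00331% to 0.0118% in CD40 day 2 and 0.149% to 0.182% in Kupffer day 0, with 9 of 9 tested lower and Col1a1 at 0 in all CD40 day 2 libraries. Classical monocyte markers held 1.64% to 2.24% in CD40 day 2 and 0.154% to 0.179% in Kupffer day 0, with 9 of 11 higher. Nuclear-retained RNA held 1.34% to 2.21% in CD40 day 2 and 2.63% to 4.06% in Kupffer day 0, and immediate early and dissociation genes, 9 of 11 lower, held 0.522% to 0.942% in CD40 day 2 and 1.8% to 2.18% in Kupffer day 0. Neutrophil markers held 0.0889% to 0.173% in CD40 day 2 and 0.0971% to 0.32% in Kupffer day 0, and these ranges overlapped. The part of these cell types and of RNA quality in the lower mitochondrial RNA was not tested.

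The nuclear partners of these transcripts went the other way. Of 71 tested nuclear genes for subunits of the respiratory complexes and ATP synthase, 53 rose in CD40 day 2 and none fell, with a median log2 fold change of 0.75, where 23.2% of all genes were higher and 30.2% lower. At an unadjusted p under 0.05, 57 were higher and 0 lower, and DESeq2 called 50 higher and 0 lower. For the unadjusted threshold and DESeq2 the share of all genes is again not given here. Cytosolic ribosomal protein genes moved in the same direction, with 49 of 67 tested higher and 1 lower.

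For complex I, 24 of 34 tested nuclear subunit genes rose, with a median of 0.67, and 13 without Kupffer day 0 a. Ndufv3, an accessory subunit of the NADH-oxidising module, rose 2.56-fold to 547 ± 74.2 CPM in CD40 day 2, against 214 ± 6.96 CPM in Kupffer day 0 (log2 fold change 1.35, adjusted p = 0.000174). Ndufb7 averaged 646 ± 77.3 CPM in CD40 day 2 and 276 ± 3.88 CPM in Kupffer day 0 (log2 fold change 1.23), and Ndufa13, also known as GRIM-19, averaged 1374 ± 220 CPM in CD40 day 2 and 588 ± 32.4 CPM in Kupffer day 0 (log2 fold change 1.22). Both are accessory subunits. Summed over the complex, the 35 nuclear subunit genes had 16358, 15408, 14249 and 13426 CPM in CD40 day 2, against 8753 and 8979 CPM in Kupffer day 0, while the 5 mitochondrial messengers had 1751, 1419, 1874 and 1918 CPM in CD40 day 2, against 5775 and 5267 CPM in Kupffer day 0.

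The part of the complex I subunit counts held by these mitochondrial messengers was therefore 9.67%, 8.43%, 11.6% and 12.5% in CD40 day 2, against 39.8% and 37.0% in Kupffer day 0. Its means of 10.6 ± 1.85% and 38.4 ± 1.96% (SD, n = 4 and 2) differed by -27.8 percentage points (exact permutation p = 0.067). Being a ratio within a library, this quantity does not depend on the scaling between libraries. It was chosen after the values had been seen, as were those for complexes III and IV.

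Complex II, which oxidises succinate and is encoded wholly in the nucleus, had 3 of 4 genes higher. Sdhb, its iron-sulfur subunit, averaged 590 ± 24.8 CPM in CD40 day 2 and 174 ± 1.31 CPM in Kupffer day 0 (log2 fold change 1.76, adjusted p = 1.4e-05). Sdhd and Sdhc, the membrane anchors, had log2 fold changes of 1.28 and 0.51, and the call of Sdhc was lost in 8 of 12 alternatives.

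For complex III, 6 of 8 tested nuclear subunit genes rose, with a median of 0.7, and 3 without Kupffer day 0 a. Uqcrfs1, the Rieske iron-sulfur protein, averaged 515 ± 35.2 CPM in CD40 day 2 and 208 ± 25.2 CPM in Kupffer day 0 (log2 fold change 1.32), and the small subunits Uqcrq and Uqcr10 rose by 1.24 and 0.94 on the log2 scale. mt-Cytb made up 33.3%, 29.5%, 35.6% and 37.8% of the complex III subunit counts in CD40 day 2, against 68.4% and 68.5% in Kupffer day 0 (exact permutation p = 0.067).

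For complex IV, 10 of 12 rose, with a median of 0.94. Cox5b averaged 817 ± 71.6 CPM in CD40 day 2 and 274 ± 21.4 CPM in Kupffer day 0 (log2 fold change 1.57), Cox7b rose by 1.51 on the log2 scale and Cox8a, with 1994, 1901, 2078 and 1981 CPM in CD40 day 2, against 939 and 862 CPM in Kupffer day 0, by 1.14. mt-Co1, the only mitochondrially encoded subunit of this complex among the transcripts, made up 1.91%, 1.77%, 2.53% and 3.02% of its subunit counts in CD40 day 2, against 5.65% and 5.22% in Kupffer day 0. The groups did not overlap (exact permutation p = 0.067), although mt-Co1 itself had not passed the test against all genes. For ATP synthase, 10 of 13 nuclear subunit genes rose, with a median of 0.93, among them Atp5e, Atp5k and Usmg5 by 1.4, 1.16 and 1.15 on the log2 scale.

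**Figure D4:**
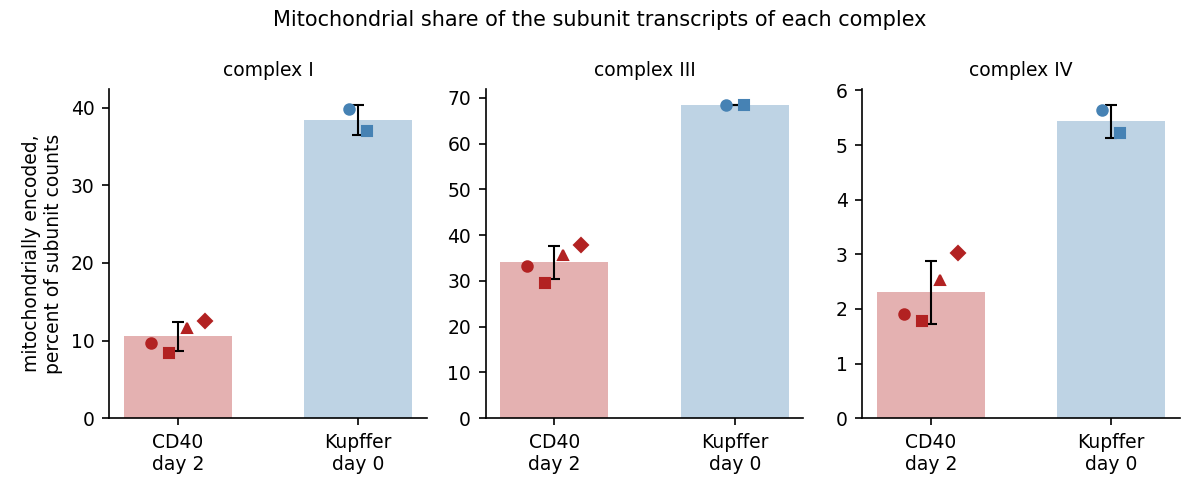
Part of the summed subunit counts of complexes I, III and IV held by the mitochondrially encoded transcripts analysed here, in percent, with separate vertical axes that start at 0. These are mt-Nd1, mt-Nd2, mt-Nd4, mt-Nd5 and mt-Nd6 for complex I, mt-Cytb for complex III and mt-Co1 for complex IV. Other mitochondrially encoded subunits are left out. Bars are means, error bars SD and points libraries (4 of CD40 day 2, 2 of Kupffer day 0), and in each complex every CD40 day 2 library lies below both Kupffer day 0 libraries.

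Genes of the mitochondrial ribosome followed the nuclear subunits in direction. Of 69 tested mitochondrial ribosomal protein genes, 40 rose and 2 fell, where 23.2% of all genes were higher and 30.2% lower. Their median log2 fold change was 0.71. Mrpl54 averaged 359 ± 21.3 CPM in CD40 day 2 and 94.4 ± 9.41 CPM in Kupffer day 0 (log2 fold change 1.92, adjusted p = 1.4e-05), and Mrpl38 and Mrpl16 rose by 1.83 and 1.65 on the log2 scale. The 2 that fell were Mrps6, at 43.3 ± 12.7 CPM in CD40 day 2 and 105 ± 3.56 CPM in Kupffer day 0, and Mrps5, whose call was lost in 8 of 12 alternatives. The ribosomal RNAs with which these proteins assemble were mt-Rnr2, which fell, and mt-Rnr1, which did not pass.

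Of 13 tested genes that copy and maintain mitochondrial DNA, 6 fell and 2 rose, with a median of -0.67, where 30.2% of all genes were lower and 23.2% higher. Mgme1, a nuclease that trims mitochondrial DNA ends, averaged 15.2 ± 5.03 CPM in CD40 day 2 and 55.6 ± 1.79 CPM in Kupffer day 0 (log2 fold change -1.82, adjusted p = 0.000375). Mpv17, an inner membrane protein needed to keep mitochondrial DNA in liver, averaged 46.7 ± 5.99 CPM in CD40 day 2 and 116 ± 7.73 CPM in Kupffer day 0 (log2 fold change -1.3, adjusted p = 0.000269), and Slc25a36, a pyrimidine nucleotide carrier, fell by 1.17 on the log2 scale. The others that fell missed the rule for naming, which asks for no overlap of libraries and a mean CPM of 20 or more. They were named after their values had been seen. These were Polg and Polg2, the catalytic and accessory subunits of the mitochondrial DNA polymerase, and the nuclease Exog. Their log2 fold changes were -1.65, -2.01 and -2.05 (edgeR adjusted p = 0.00132, 0.00538 and 0.00416). Dna2, a helicase and nuclease that also acts in the nucleus, averaged 33.9 ± 11.8 CPM in CD40 day 2, against 2.54 ± 0.346 CPM in Kupffer day 0 (log2 fold change 3.7). Its Kupffer day 0 values rest on 4 and 2 counts, so the size of this fold change is imprecise. Dna2 passed the filter on low counts only through the CD40 day 2 libraries. The direction of its call, counted among the 2 that rose, cannot be separated from that selection. Ssbp1, the single-strand binding protein, rose by 0.65 on the log2 scale, a call lost in 8 of 12 alternatives.

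Of 6 tested genes of the transcription machinery, 2 were higher and 0 lower, where 23.2% and 30.2% of all genes were. The counts were 2 higher and 1 lower at an unadjusted p under 0.05, and 1 higher and 0 lower by DESeq2. For the unadjusted threshold and DESeq2 no share of all genes is given here. Tfam, which packages mitochondrial DNA and starts its transcription, had 27.3, 25.5, 28.2 and 26.8 CPM in CD40 day 2, against 24.7 and 16.7 CPM in Kupffer day 0. The difference did not pass (log2 fold change 0.33 ± 0.25, SE, edgeR adjusted p = 0.301). Polrmt, the mitochondrial RNA polymerase, averaged 10.8 ± 3.44 CPM in CD40 day 2 and 16.1 ± 3.14 CPM in Kupffer day 0, which did not pass either (log2 fold change -0.68 ± 0.36, adjusted p = 0.136). Tfb2m, the second initiation factor, had too few counts to be tested. Tefm, the elongation factor, was higher by 1.08 (adjusted p = 0.0461), a call lost in 8 of 12 alternatives, and Mrpl12 by 0.71, a call lost in 3 of 12. Neither was called with library totals alone or without either of the Kupffer day 0 libraries.

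Of 18 tested factors that process, tail and degrade the transcripts, 4 rose and 1 fell, with a median of 0.28, where 23.2% of all genes were higher and 30.2% lower. Slirp, the partner of Lrpprc in stabilising mitochondrial messengers, averaged 371 ± 32.7 CPM in CD40 day 2 and 182 ± 4.67 CPM in Kupffer day 0 (log2 fold change 1.03, adjusted p = 0.000522). Lrpprc itself had 19.1, 11.3, 11.8 and 12.5 CPM in CD40 day 2, against 13.8 and 13.9 CPM in Kupffer day 0 (log2 fold change -0.03 ± 0.34, SE, edgeR adjusted p = 0.959). Ptcd2, a pentatricopeptide protein linked in mouse to the mt-Cytb messenger, averaged 91.3 ± 23.6 CPM in CD40 day 2 and 17.4 ± 12.8 CPM in Kupffer day 0 (log2 fold change 2.19, adjusted p = 0.000971). Grsf1, an RNA granule protein, was higher by 0.99 and Fastk, linked to the mt-Nd6 messenger, by 0.7, and Angel2 was lower at -0.68, calls that were lost in 7, 7 and 8 of 12 alternatives.

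The remaining processing factors named did not pass in this fit. Pnpt1 and Supv3l1, the nuclease and helicase of the mitochondrial degradosome, had log2 fold changes of 0.6 (adjusted p = 0.0854) and -0.06 (adjusted p = 0.924). Mtpap, the poly(A) polymerase that adds the tails by which this assay captures the transcripts, averaged 26.5 ± 3.07 CPM in CD40 day 2 and 38.2 ± 1.19 CPM in Kupffer day 0 (log2 fold change -0.5 ± 0.22, edgeR adjusted p = 0.078). Its libraries did not overlap, and it was called lower with library totals alone (-0.67, adjusted p = 0.0256) and with at least 10 counts in 4 libraries (-0.63, adjusted p = 0.033). Pnpt1 was called higher without CD40 day 2 b (0.77, adjusted p = 0.0261). Elac2, which cuts the 3′ ends of transfer RNAs, had 0.46 (adjusted p = 0.364) and Fastkd5 0.31 (adjusted p = 0.724).

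Of 16 tested genes for ribosomal RNA modification and ribosome assembly, 1 rose and 3 fell, where 23.2% of all genes were higher and 30.2% lower. Malsu1, an assembly factor of the large subunit, rose by 0.75, and Ngrn, Dhx30 and Rbfa had log2 fold changes of -0.89, -0.67 and -0.58, calls that were lost in 3, 6 and 6 of 12 alternatives. None of the 3 was called lower under DESeq2, without CD40 day 2 c or without Kupffer day 0 a. Of 12 translation factors, 1 rose and 1 fell, beside the same shares of all genes. Mrrf, the ribosome recycling factor, averaged 13.1 ± 3.92 CPM in CD40 day 2 and 51.4 ± 10.1 CPM in Kupffer day 0 (log2 fold change -2.02, adjusted p = 0.000376), and Oxa1l, the insertase for newly made subunits, rose by 0.92, lost in 6 of 12. Of 8 regulators of mitochondrial biogenesis, 1 rose and 1 fell, again beside those shares of all genes. Ppargc1b rose by 1.79 (adjusted p = 0.00463) and Nrf1 had -0.54, lost in 8 of 12, while Ppargc1a had 0 counts in all 6 libraries. Without Kupffer day 0 a, Malsu1 (0.59) and Ppargc1b (1.31) were no longer called, and the same held for Slc25a36 (-1.06) and Mrpl38 (1.71).

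General markers of mitochondrial content gave no uniform direction, though more rose than fell. Of 22 tested, 8 rose and 2 fell, where 23.2% of all genes were higher and 30.2% lower. Their median log2 fold change was 0.38, against -0.1 over all genes. Cs, citrate synthase of the matrix, averaged 195 ± 30.3 CPM in CD40 day 2 and 95.6 ± 8.56 CPM in Kupffer day 0 (log2 fold change 1.03). Of the prohibitins of the inner membrane, Phb2 had 247, 294, 246 and 223 CPM in CD40 day 2, against 116 and 130 CPM in Kupffer day 0, whereas Phb had 26.4, 24.0, 13.2 and 20.3 CPM in CD40 day 2, against 45.9 and 55.7 CPM in Kupffer day 0, so that the partners of this ring changed in opposite directions. Hspe1 and Slc25a4, with 1.36 and -0.64, lost their calls in 6 of 12 alternatives each.

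**Figure D5:**
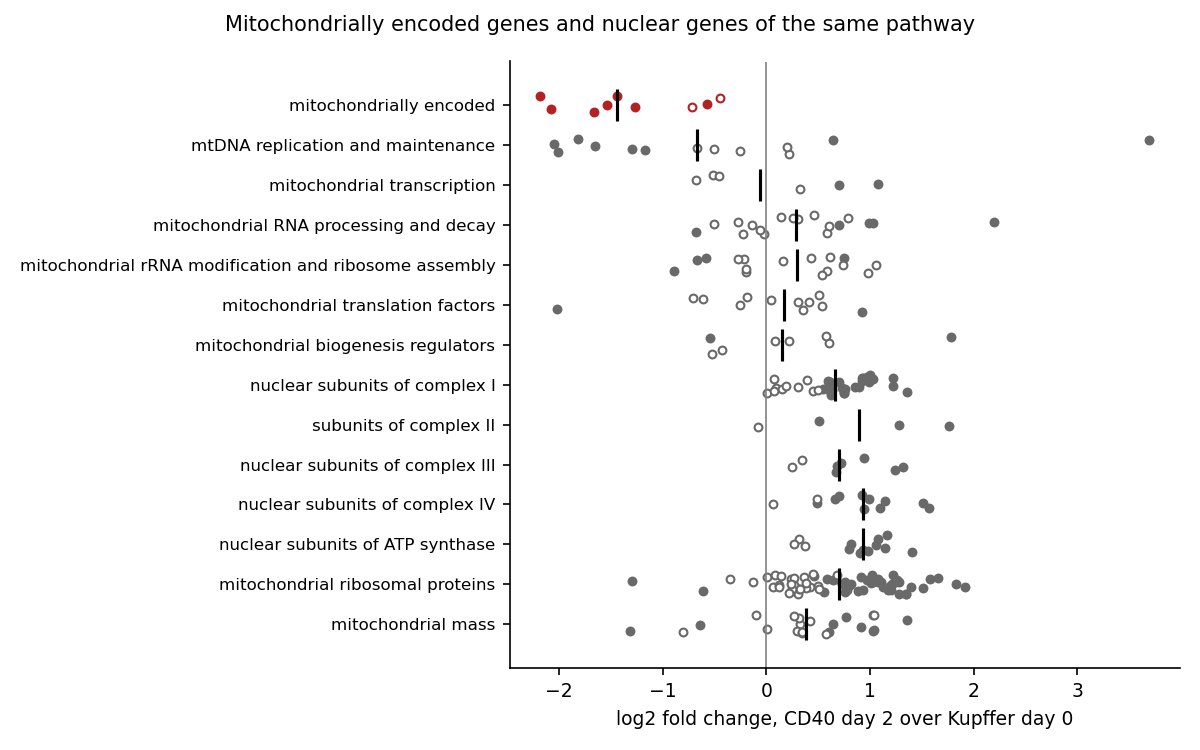
Log2 fold change, CD40 day 2 over Kupffer day 0, of the 9 mitochondrially encoded transcripts (red) and of the nuclear genes of 13 lists (grey), 1 point per tested gene, with vertical placement within a row for legibility only. Filled points have an adjusted p under 0.05 and black bars are medians, which lie at -1.44 for the transcripts and between 0.67 and 0.94 for the nuclear subunits of complexes I to IV and ATP synthase.

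Profiles like that of the messengers were searched among 3349 nuclear genes with at least 50 CPM, by the root mean square difference of centred log2 CPM over the 6 libraries. The closest were Golga7 at 0.0593, Scarb2 at 0.0766, Sptssa at 0.0937, Epb41l2 at 0.104 and Add1 at 0.107. Golga7 had 46.4, 36.8, 52.3 and 54.2 CPM in CD40 day 2, against 141 and 124 CPM in Kupffer day 0. The messengers themselves lay between 0.0983 for mt-Nd5 and 0.496 for mt-Co1 from their own mean, and 420 of the genes searched were closer to it than mt-Co1.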

How the data were processed

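Bulk 3′ poly(A) libraries carried molecular identifiers, per the labels' protocols, and the submitters' processing notes name genome build GRCm38.p6 and DESeq2 1.22.2. The deposited table holds raw counts per gene symbol. The sources used here give neither the aligner, the counter, the strand setting nor whether reads or identifiers were counted. Columns name groups but carry no replicate number. Counts of 6 libraries were tested with edgeR 4.0.16 in R 4.3.3 (TMM, filterByExpr, quasi-likelihood, two-sided, Benjamini-Hochberg over 9852 genes, threshold 0.05), after a check on simulated data. A second fit used the summed counts of the 7 messengers as library size. Shares were compared by an exact permutation test over 15 splits. Alternatives were DESeq2 1.42.0, other scalings and filters, and each library left out. The members and gene lists were chosen with earlier results of these data known. Nuclear genes were named where they had the 3 largest changes per direction in a list, an adjusted p under 0.05, no overlap of libraries and a mean CPM of 20 or more, and a few regulators were named whatever their values. Nuclear copies were searched as exact 75-base matches to annotated transcripts of GENCODE M21. Of the symbols, 17 are calendar dates and cannot be matched.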

Additional observations from a re-analysis of the deposited data

Results flagged for a closer look

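Of 90 quantities checked in the 4 CD40 day 2 libraries, 4 had 1 library far from the others by Dixon's criterion, of which chance flags about 1 in 20, and each time that library was CD40 day 2 a. Slirp had 420 CPM in library a and 352 to 358 CPM in the other libraries. Ndufv3 had 657 CPM in library a and 495 to 521 CPM in the others. Lrpprc had 19.1 CPM in library a and 11.3 to 12.5 CPM in the others, on 21 counts. Grsf1 had 15.5 CPM in library a and 19.6 to 19.8 CPM in the others, on 17 counts. None of the 9 mitochondrially encoded transcripts was among them.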

How the results depend on the processing

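No paired analysis was possible because the columns carry no replicate numbers. The number of the 9 transcripts called lower was 6 to 9 and the number called higher 0 in every alternative. The scaling by library totals alone moved the median of all genes to -0.27. Leaving out 1 library gave 1406 to 2551 genes higher and 1800 to 2963 lower over all genes, with the fewest of both without Kupffer day 0 a. Scaled to the messengers, leaving out 1 CD40 day 2 library gave 2 to 3 transcripts higher and 1 to 2 lower. These counts moved further when a Kupffer day 0 library was left out. The sum of all 9 as the scale gave 0 higher and 3 lower, where the median over all genes was 0.78. The share of all genes called was not computed for these settings. Of the pathway genes, 9 were lower under DESeq2, and leaving out 1 library gave 70 to 121 higher and 7 to 14 lower, the fewest again without Kupffer day 0 a. Signs turned only for values that had not passed. These were relative mt-Cytb at -0.38 with the sum of all 9, Lrpprc at 0.03 under DESeq2 and 0.02 with its size factors, and, over the left-out libraries, relative mt-Nd5 (-0.15 to 0.07), Lrpprc (-0.2 to 0.08), Supv3l1 (-0.23 to 0.28) and Fastkd5 (-0.01 to 1.09). For all these the cause was not tested. Of 171 member values under alternatives 143 kept direction and side of the threshold, and of 655 for named nuclear genes 541. Groups of 4 and 2 libraries and as few as 21 counts for mt-Nd6 limit the precision.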

Other observations

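Other mitochondrially encoded rows outside the 10 genes were scarce, with 17 rows, of which 6 had at least 10 counts over the 6 libraries. mt-Nd3, a further complex I subunit, had 0.91, 1.41, 0.91 and 3.57 CPM in the CD40 day 2 libraries, against 16.1 and 11.1 CPM in the Kupffer day 0 libraries (log2 fold change -2.94), on 1 to 6 and 8 to 28 counts. The transfer RNA genes mt-Tp and mt-Ti had log2 fold changes of -2.94 and -2.04. In CD40 day 2 they rested on 1 to 5 and 1 to 8 counts. In Kupffer day 0 mt-Tp had 26 and 12 counts and mt-Ti 24 and 6. mt-Nd3, mt-Tp and mt-Ti passed the filter on low counts only through the Kupffer day 0 libraries. The direction of their change cannot be separated from that selection. mt-Tm did not pass (-0.83, adjusted p = 0.242), and its libraries overlapped.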
